A study of Mus musculus with 4 samples.

Results

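The genes described here make, carry and sense retinoic acid, and they were read by microarray in bronchoalveolar stem cells (BASCs) with and without depletion of c-Myc. The members are the 9 mouse genes Aldh1a1, Aldh1a2, Aldh1a3, Rbp4, Crabp1, Crabp2, Rara, Rarb and Rarg, of 18193 genes named on the array, and every probe set whose platform annotation gives exactly that symbol was taken. This gave 12 of the 45037 probe sets, since Aldh1a3 has 3 and Rarg has 2. BASCs were sorted from lungs of ICR mice aged 4 to 6 weeks by absence of CD31 and CD45 and presence of CD34 and Sca-1, and were plated on irradiated mouse embryonic fibroblasts. For established cells the study's Results give dishes coated with collagen, whereas its Methods give passage onto embryonic fibroblasts. No source used here says whether feeder cells were present when RNA was taken for the arrays. Of the 4 Affymetrix mouse expression arrays, 2 were labelled control and 2 Myc-depleted. The depleted cells were stable lines made with a lentiviral short hairpin RNA against c-Myc and selected with puromycin over several generations. The study calls the control cells of the arrays wild type, and neither a control virus for them nor the hairpin used is given in the sources used here, so the virus and the drug cannot be told apart from the loss of c-Myc. No label ties the arrays to different cultures or animals, and the p-values then measure only the spread between arrays, which may be technical.

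Retinoic acid is made inside cells from vitamin A. Retinol reaches tissues bound to the plasma carrier Rbp4, is oxidised to retinal, and is then turned into retinoic acid by the retinal dehydrogenases Aldh1a1, Aldh1a2 and Aldh1a3. Crabp1 and Crabp2 bind retinoic acid in the cytoplasm, where Crabp2 is known for passing it to the nucleus, and the receptors Rara, Rarb and Rarg bind DNA with a retinoid X receptor partner and switch target genes. In the lung the pathway is known for its part in branching of the embryonic airways and in the formation of alveoli.

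The promoter of Rarb and that of Cyp26a1, which encodes an enzyme that breaks retinoic acid down, are textbook targets of these receptors, and their sequences are shown because both genes serve as readouts of the pathway. RefSeq windows of GRCm38.p6 from 250 bases before to 50 bases after a start site were searched on both strands for the DR5 element, which is 2 receptor half-sites in the same direction 5 bases apart, and for the E-box CACGTG, the site bound by Myc with its partner Max. Windows were found for 7 of the 9 members, 13 in all, and none for Aldh1a3 and Crabp2. A DR5 element lay in 1 of the 13 windows, that of Rarb, against 0.0974% of all 32851 windows. The E-box lay in 2 of the 13, which are overlapping windows of Rara that share the same site, against 7.15% of all windows. The DR2 element, with the half-sites 2 bases apart, lay in 0 of the 13, against 0.268% of all windows. A match of letters does not show that a factor binds there. In the stretches below, written 5′ to 3′ on the strand of the gene, capitals mark the DR5 element of Rarb (bases -53 to -37 from the start, chr14:16575493-16575549, minus strand), that of Cyp26a1 on the opposite strand to the gene (bases -32 to -16, chr19:37697756-37697807, plus strand) and the E-box of Rara (bases -10 to -5 from the later of the overlapping starts, chr11:98937696-98937717, plus strand).
Rarb: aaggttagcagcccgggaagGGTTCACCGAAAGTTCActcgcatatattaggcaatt
Cyp26a1: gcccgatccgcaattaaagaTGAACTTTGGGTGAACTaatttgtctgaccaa
Rara: tttcagcctctgCACGTGactc

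Levels are given on the log2 scale for each probe set by itself, and differences are Myc-depleted minus control. A probe set was tested when its mean over the 4 arrays reached the low-value threshold of log2 5.08. The arrays did not group by label. Control 1 correlated at 0.986 with control 2 and at 0.984 with Myc-depleted 2 over the probe sets tested, whereas the Myc-depleted arrays correlated at 0.967 with each other. The poly-A spike-in RNAs, added before labelling to follow it, had a mean 3′ minus 5′ difference of 2.15 on control 1 and 2.05 on Myc-depleted 2, against 3.24 on control 2 and 3.62 on Myc-depleted 1. The cells' own Gapdh and actin split the arrays likewise. The 3′ minus 5′ difference of Gapdh was -0.13 on control 1 and -0.11 on Myc-depleted 2. It was 0.31 on control 2 and 0.87 on Myc-depleted 1. That of actin was 0.60 and 0.69 against 1.36 and 1.95, in the same order of arrays. At the RNA level the labelled cell type was not reflected in most of its usual markers. By immunostaining, the paper found the proteins SP-C and CCA, its markers of BASCs, in most cell colonies after repeated passage. From its arrays it reported the mRNA of SP-C, CCA and Aquaporin as unchanged by the depletion, without showing the values. Of 11 lung epithelial genes, 8 had no probe set over the threshold, among them Sftpc, Scgb1a1, Cdh1 and Nkx2-1. The sort marker Cd34 had none either, with a highest value of 3.97. Pecam1 and Ptprc, for the CD31 and CD45 that the sort excluded, were under the threshold too. The sort marker Sca-1 was not read, since no probe set had exactly its symbol Ly6a. Of 11 fibroblast genes, 10 had a probe set over it, with Col1a2 between 14.27 and 14.56 on its brightest probe set. The same held for 2 of 8 mesothelial, 1 of 7 endothelial and 3 of 6 leukocyte genes, and the part of other cells in the retinoid levels was not tested. In such bulk RNA, fewer cells of a kind and less RNA per cell cannot be told apart.

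Myc was lower on both Myc-depleted arrays (8.35 and 8.50) than on both control arrays (9.21 and 9.69). The difference of -1.02 had an adjusted p of 0.36 in limma, and 0% of the 27022 probe sets tested passed an adjusted p of 0.05. None of the retinoid probe sets passed it either. Without adjustment 2726 of all probe sets had p under 0.05 in limma. With the test that the study's methods name, run on the same values, 0 passed after adjustment and 2521 before.

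No retinoid gene that could be tested differed between c-Myc depleted and control BASCs by more than the arrays of a group differed from each other. Of the 12 probe sets 5 were tested, which read Aldh1a1, Aldh1a3, Rara and Rarg, and for the other 5 genes no probe set reached the threshold. All 5 tested probe sets had a negative difference, between -0.43 and -0.02, with a median of -0.18 against -0.0024 over all probe sets tested, of which 50.5% were negative. With 1 array left out, the median ran from -0.58 without Myc-depleted 2 to -0.0016 without Myc-depleted 1. Without Myc-depleted 1, Aldh1a1 was 0.53 and the dimmer Rarg probe set 0.63, and without control 1 they were 0.14 and 0.38. With every array kept, the groups of each tested retinoid probe set overlapped. Thus 0 of 5 had groups set apart from each other, where 41.1% of all probe sets tested did. The share of all probe sets over 2-fold different with an unadjusted p under 0.05 was 1.17%, and 0 of the 5 were among them.

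**Figure D1:**
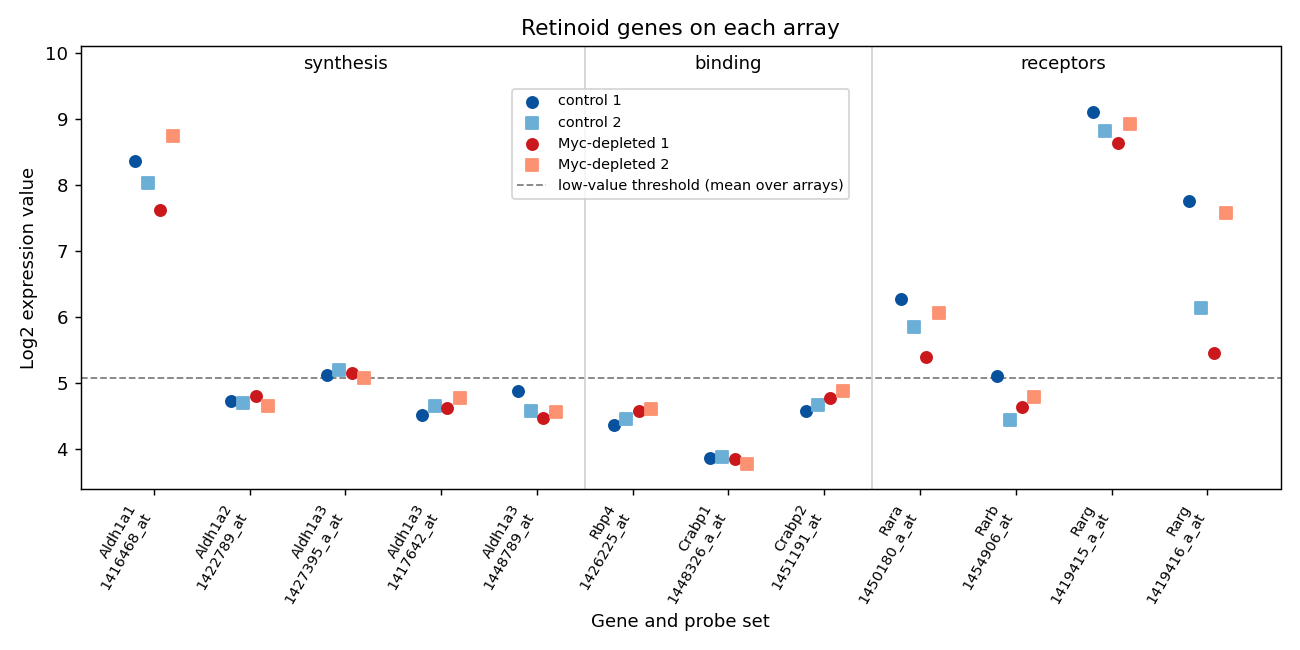
Log2 expression value (vertical axis) of the 12 retinoid probe sets (horizontal axis) on each of the 4 arrays, in blue for control and red for Myc-depleted, with the low-value threshold of 5.08 as a dashed line. Aldh1a1, Rara and both Rarg probe sets lie above the line on all arrays with the colours mixed, and the binding proteins lie below it.

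Of the retinal dehydrogenases, Aldh1a1 gave the only signal well over the threshold. Its values were 8.37 and 8.03 on the control arrays and 7.62 and 8.73 on the Myc-depleted arrays. The Myc-depleted arrays were thus the lowest and the highest of the 4, with the controls between them. The group means were 8.20 ± 0.23 and 8.18 ± 0.79 (SD, n = 2 each), and the difference of -0.02 had a 95% interval of -1.20 to 1.15 in limma. A change of 2-fold in either direction lies within that interval.

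Aldh1a3 was tested with 1 of its 3 probe sets, which lay at the edge of the threshold. That probe set read 5.13 and 5.20 on the control arrays and 5.15 and 5.09 on the Myc-depleted arrays, with the groups overlapping. The difference was -0.04, with an interval of -0.36 to 0.27. The other 2 probe sets had means of 4.64 and 4.63 and differed by 0.11 and -0.22, in opposite directions. Aldh1a2, the dehydrogenase that supplies most retinoic acid in the early embryo, lay between 4.66 and 4.81 on all arrays, under the threshold.

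The binding proteins Rbp4, Crabp1 and Crabp2 were all under the threshold, so their values are described without a test. Rbp4 read 4.37 and 4.47 on the control arrays and 4.59 and 4.61 on the Myc-depleted arrays. Crabp2 read 4.59 and 4.67 against 4.77 and 4.88. In both, the Myc-depleted arrays lay above the controls, by 0.18 for Rbp4 and 0.20 for Crabp2. Crabp1 was between 3.79 and 3.89, with a difference of -0.06. Of the 7 probe sets left out of the test, 4 had groups that did not overlap, 2 of them higher and 2 lower in Myc-depleted cells. With no filter, 17251 of all 45037 probe sets had groups that did not overlap. With no filter on low values the smallest adjusted p of the 12 probe sets in limma was 0.73, that of Crabp2, and 0 had an unadjusted p under 0.05.

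The receptors Rarg and Rara were over the threshold and Rarb was under it. Rarg, the receptor best known from skin and cartilage, was read by 2 probe sets. The brighter gave 9.10 and 8.81 on the control arrays and 8.63 and 8.92 on the Myc-depleted arrays. Control 1 and Myc-depleted 2 were the higher array of their group, and Myc-depleted 2 exceeded control 2. The difference was -0.18 (SE 0.18), with an interval of -0.69 to 0.32. The other probe set of Rarg gave 7.76 and 6.14 on the control arrays and 5.46 and 7.58 on the Myc-depleted arrays, so control 1 and Myc-depleted 2 again stood over the others. Its values differed by 1.62 within the control group and by 2.12 within the Myc-depleted group, against a difference between groups of -0.43 (SE 0.95). Its SD within groups was 1.34, where the median over all probe sets tested was 0.15. The interval of -3.06 to 2.20 leaves that probe set without a usable estimate.

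Rara, the most widely expressed of the receptors, read 6.28 and 5.85 on the control arrays and 5.39 and 6.06 on the Myc-depleted arrays. Myc-depleted 1 was the lowest of the 4, but Myc-depleted 2 lay between the controls. The difference of -0.34 (SE 0.30, interval -1.17 to 0.50) had an adjusted p of 0.79 in limma. Rarb, whose gene is itself a target through the DR5 element printed above, read 5.11 and 4.45 on the control arrays and 4.65 and 4.79 on the Myc-depleted arrays. That value on control 1 was the only one over 5.08 among the 7 retinoid probe sets not tested. Rarb was described without a test, and its difference of -0.06 was smaller than its SD within groups of 0.34.

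**Figure D2:**
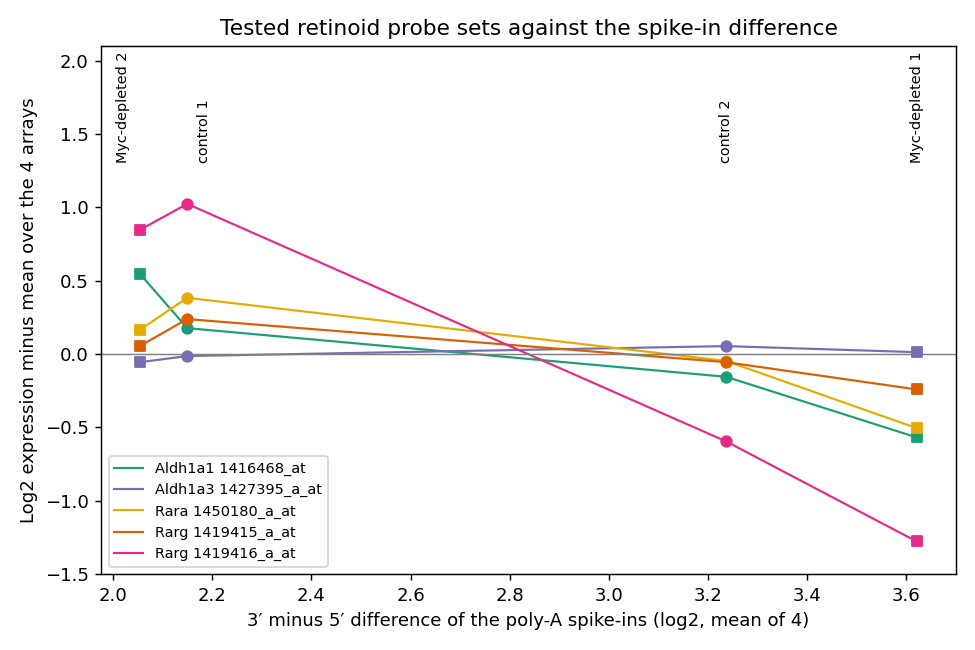
Log2 expression value of the 5 tested retinoid probe sets minus the mean over the 4 arrays (vertical axis) against the mean 3′ minus 5′ difference of the spike-ins (horizontal axis, log2), with circles for control and squares for Myc-depleted arrays. Aldh1a1, Rara and both Rarg probe sets are higher on the arrays at 2.05 and 2.15 than on those at 3.24 and 3.62, and Aldh1a3 is nearly flat.

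The spread within groups followed the spike-in difference in 4 of the 5 tested probe sets. In those of Aldh1a1, Rara and Rarg, control 1 and Myc-depleted 2, the arrays with the smaller spike-in difference, were both higher than control 2 and Myc-depleted 1. The same held for 22.2% of all probe sets tested, and the opposite, with both arrays lower, for 24.2%. Myc-depleted 1, with the largest spike-in difference, was lowest in each. The part of the spike-in difference in these levels was not tested beyond the fit below, and that of the Gapdh and actin differences was not tested.

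Between the arrays with closest spike-in values, the values of Rara and Rarg were lower on the Myc-depleted array in both comparisons. These pairs were chosen after the data were seen, and the share of all probe sets lower in both was not counted. The spike-in values were still unequal, at 3.62 on Myc-depleted 1 and 3.24 on control 2. Myc-depleted 2 minus control 1 was -0.22 for Rara and -0.18 for each Rarg probe set. Myc-depleted 1 minus control 2 was -0.46 for Rara, and -0.19 and -0.68 for the brighter and the dimmer Rarg probe set. For Aldh1a1 the same comparisons gave 0.37 and -0.41, and for the untested Rarb -0.33 and 0.20, which point in opposite directions. The tested Aldh1a3 probe set gave -0.04 in both. Of the untested, Rbp4 gave 0.24 and 0.12, and Crabp2 gave 0.29 and 0.10. Crabp1 gave -0.08 and -0.03, and the Aldh1a3 probe set with a mean of 4.63 gave -0.32 and -0.12. Aldh1a2 gave -0.08 and 0.12, and the Aldh1a3 probe set with a mean of 4.64 gave 0.25 and -0.03, again in opposite directions. Adding the spike-in difference to the limma fit, a choice made after seeing the data that leaves 1 residual degree of freedom, gave -0.28 (SE 0.10) for Rara with an adjusted p of 0.13, and -0.15 (SE 0.10) and -0.23 (SE 0.11) for the Rarg probe sets with adjusted p of 0.38 and 0.22. Aldh1a1 was then 0.061 (SE 0.14). None of the 5 passed in that fit, in which 10.4% of all probe sets did.

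**Figure D3:**
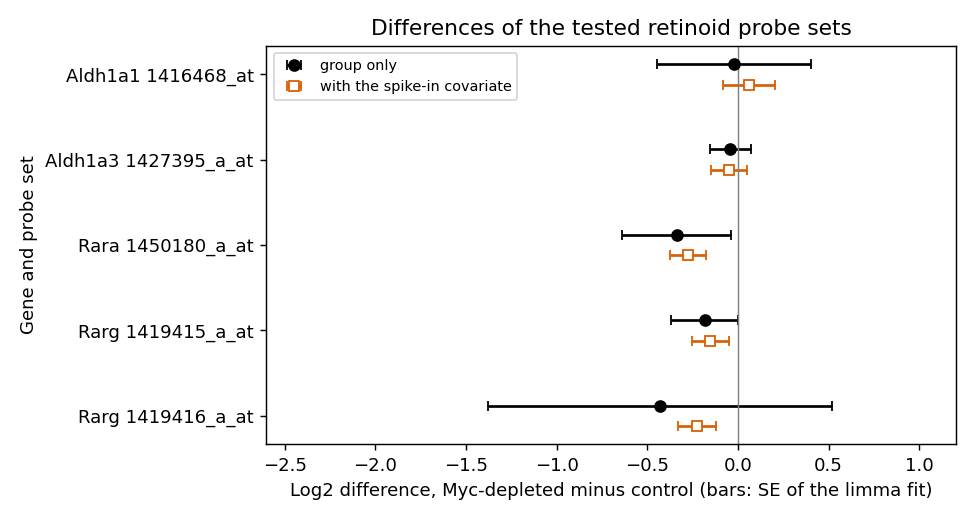
Log2 difference between Myc-depleted and control arrays (horizontal axis) of the 5 tested retinoid probe sets (vertical axis), with the SE of the limma fit as bars, for the group alone (black circles) and with the spike-in difference as a covariate (open orange squares). The SE of the dimmer Rarg probe set, in the lowest row, is 0.95 with the group alone and 0.11 with the covariate.

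The other steps of the pathway were described with 1 tested probe set per gene, the one with the highest mean, for 12589 genes in all. Across these, the groups did not overlap for 47.5%, an unadjusted limma p under 0.05 was reached by 12.2%, both that and a 2-fold difference by 1.61%, and the median difference was 0.02. No gene passed after adjustment with the group alone, so the values that follow are given as differences and not called changes. The fit with the spike-in difference was chosen after seeing the data and leaves 1 residual degree of freedom. In it, 13 of the 47 pathway genes tested passed, 6 higher and 7 lower, against 10.5% of all genes. Among the 13 were Lpl, Fabp5, Adh7, Rarres1, Rarres2, Ret and Hoxb5. The lists were chosen with earlier results of these data known, so these shares do not test the pathway. Of 10 fibroblast markers tested, 5 were higher and 5 lower, with a median of -0.03. Groups did not overlap for 6 of them, 4 higher and 2 lower, against 47.5% of all genes tested. Col1a1 differed by -0.52 and Postn by -0.64, both with overlapping groups. Among markers chosen after their values were seen, Pdgfra differed by 1.23, Dcn by 0.67 and Thy1 by -1.26, and the epithelial marker Epcam by 0.65, none with overlapping groups. The other probe sets of Epcam and Dcn, under the threshold, differed by -0.13 and -0.02 with overlapping groups. The part of other cells in the pathway and Hox values below was not tested. Of 18 genes of retinol and retinal enzymes 10 were tested, with 8 higher and 2 lower, 7 not overlapping and a median of 0.13. Rdh10, which carries out the first oxidation of retinol in the embryo, read 8.52 and 8.35 on the control arrays and 8.95 and 8.76 on the Myc-depleted arrays, and its 2 probe sets differed by 0.42 and 0.72. Adh7, an alcohol dehydrogenase that also oxidises retinol, read 6.70 and 6.49 against 5.68 and 6.05, a difference of -0.73, with -0.90 on its other probe set. Neither gene overlapped between groups, and they stood on opposite sides. Rdh5 differed by 0.31, and Dhrs3, which turns retinal back to retinol, by 0.35 with overlapping groups.

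Of 15 genes of retinoid uptake, transport and storage 7 were tested, with 4 higher, 3 lower and 3 not overlapping (median 0.08). Over all genes tested, 47.5% did not overlap. Lpl, a lipase that helps cells take up retinyl esters from lipoproteins, read 9.95 and 9.99 on the control arrays and 11.98 and 11.38 on the Myc-depleted arrays (difference 1.71). Fabp5, a fatty acid binding protein that can also carry retinoic acid, read 12.41 and 12.54 against 11.29 and 11.32 (difference -1.17). These 2 genes were the only ones of the list over 2-fold different with an unadjusted p under 0.05. Dgat1, which can esterify retinol, differed by 0.38. The retinol receptor Stra6 had a mean of 4.92 and the retinol esterifying enzyme Lrat between 3.93 and 4.39 over 2 probe sets, all under the threshold. Of the 3 enzymes of retinoic acid clearance only Cyp26b1 was tested, at 7.07 and 7.26 on the control arrays and 7.49 and 8.33 on the Myc-depleted arrays. Its difference of 0.75 (SE 0.32) lay mostly on Myc-depleted 2. Cyp26a1, with the DR5 element shown above, lay between 4.72 and 4.91.

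Of 13 receptor partners and cofactors 12 were tested, with 7 higher, 5 lower and 7 not overlapping (median 0.08). The share not overlapping over all genes tested was 47.5%. Rxra, the retinoid X receptor with which the retinoic acid receptors pair, read 7.67 and 7.96 on the control arrays and 8.40 and 8.11 on the Myc-depleted arrays. Its difference was 0.44 (SE 0.18), with 0.15 on its second tested probe set. Rxrb differed by 0.15 with overlapping groups, and Rxrg lay between 4.89 and 5.10, with a mean under the threshold. The fat cell receptor Pparg, another partner of retinoid X receptors, differed by 0.49, and the orphan receptor Nr2f1 by 0.27.

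**Figure D4:**
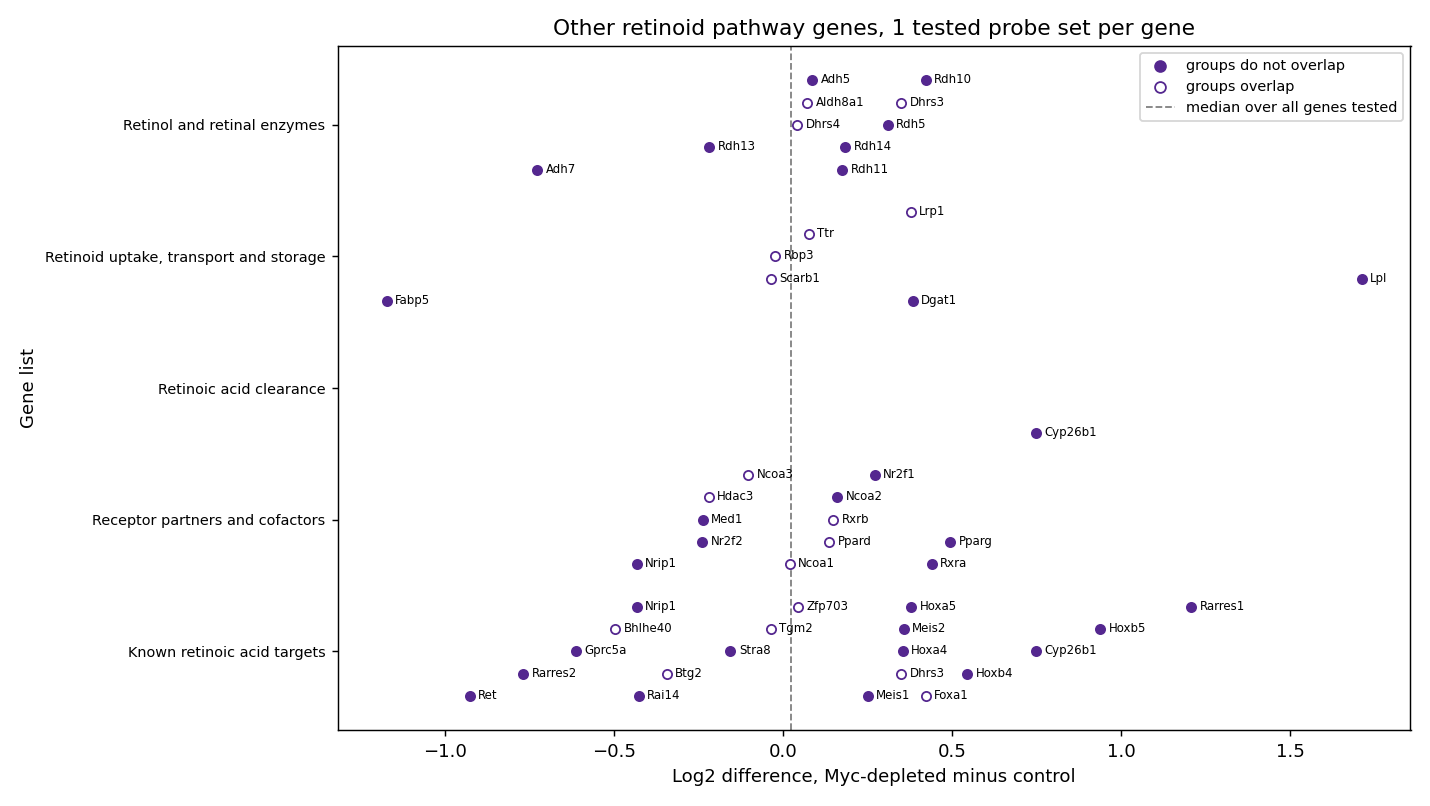
Log2 difference between Myc-depleted and control arrays (horizontal axis) of the tested genes of 5 lists of the retinoid pathway (vertical axis), filled where the groups did not overlap, with the median over all genes tested (0.02) as a dashed line. Lpl lies farthest right at 1.71 and Fabp5 farthest left at -1.17, and the known targets spread to both sides of 0.

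Genes known to respond to retinoic acid spread to both sides. Of 27 with a probe set 20 were tested, with 11 higher and 9 lower, and a median of 0.15. The groups did not overlap for 14, 8 higher and 6 lower, against 47.5% of all genes tested. An unadjusted limma p under 0.05 was reached by 8 of the 20, against 12.2% of all genes tested. The list was chosen with earlier results of these data known. Cyp26b1, Dhrs3 and Nrip1 stand in this list and in another, and the untested Rarb and Crabp2 are members of it. Rarres1, named for its response to a retinoid drug, read 8.19 and 7.63 on the control arrays and 8.97 and 9.25 on the Myc-depleted arrays, a difference of 1.21 (SE 0.25). Rarres2, which encodes the secreted chemoattractant chemerin and bears the same name, read 7.03 and 6.72 against 6.10 and 6.11, a difference of -0.77 (SE 0.15). The pair thus stood on opposite sides. Ret, a receptor tyrosine kinase, differed by -0.93, with -0.21 on its other tested probe set. Tgm2, a transglutaminase, read 7.97 and 6.97 on the control arrays and 7.05 and 7.82 on the Myc-depleted arrays, so control 1 and Myc-depleted 2 were again the higher arrays, as in Rarg. Its 5 tested probe sets differed by between -0.06 and -0.03.

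The 4 tested Hox genes of the target list, which pattern the body axis and were singled out after their values were seen, had higher values on both Myc-depleted arrays than on both control arrays. Hoxb5 read 6.94 and 6.96 on the control arrays and 8.12 and 7.66 on the Myc-depleted arrays, a difference of 0.94 (SE 0.20, adjusted p of 0.38 in limma). Hoxb4 differed by 0.54, Hoxa5 by 0.38 and Hoxa4 by 0.35. Of all 27022 probe sets tested, 6083 likewise had both Myc-depleted arrays above both controls. Hoxb1, whose retinoic acid enhancers are well known, lay between 3.66 and 3.99, under the threshold.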

How the data were processed

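The deposited values are log2 expression values that the authors made from Affymetrix CEL files in Partek 6.4. Their methods name Robust Multichip Average, and the submitters' processing notes name GCRMA. Which one made the values was not settled, and it matters most for dim probe sets. Array controls (64) were removed, and the remaining 45037 probe sets were named from the platform annotation, by which 34945 had 1 symbol. Probe sets with a mean over the 4 arrays under the 40th percentile (log2 5.08) were not tested. Groups were compared with limma 3.58.1 in R 4.3.3 (lmFit, eBayes) over the 27022 others with Benjamini-Hochberg adjustment. The fit had 2 residual degrees of freedom and a prior of 2.02, and it was tested on simulated data. Since the factors of the methods' ANOVA are not given, it was run with the group as its factor. Precision is limited by the number of arrays.

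The members and gene lists were chosen with earlier results of these data known. Besides all members and Myc, the named genes were a fixed set of pathway genes and the 3 with the smallest p of each list. The Hox genes and the cell type markers named were chosen after their values were seen. The spike-in difference is the mean over Dap, Lys, Phe and Thr. Promoter windows came from RefSeq (GRCm38.p6), and the deposited table states no build, so coordinates are given for those windows alone. Alternatives changed the filter, the normalization, the floor, the eBayes settings or the test, added a replicate block, or left out each array in turn.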

Additional observations from a re-analysis of the deposited data

How the results depend on the processing

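None of the retinoid probe sets passed an adjusted p of 0.05 in any alternative, so none gained a call, and the design with 2 arrays per group gives this little weight. The count of all probe sets called stayed at 0 except where the data had been seen first, with 21 (14 higher, 7 lower) when control 1 was paired with Myc-depleted 2 and control 2 with Myc-depleted 1, and 2819 (1275 higher, 1544 lower) with the spike-in covariate. The count over 2-fold with an unadjusted p under 0.05 was 316 in the limma fit, 207 by the methods' ANOVA, and 290 to 830 with 1 array left out (566 without Myc-depleted replicate 1 and 830 without Myc-depleted replicate 2). Same-numbered arrays deviated in opposite directions (correlation -0.77 over the probe sets tested), so the numbers were not taken to pair them, and with the replicate number as a block the fit called 0 and gave 306 over 2-fold. The count of retinoid probe sets with groups that did not overlap was 4 of 12 with no filter, against 17251 of all 45037. With 1 array left out it was 1 to 4 of 5, against 16574 to 21449 of the 27022 probe sets tested. Fewer arrays make overlap less likely. The median difference over the tested retinoid probe sets ran from -0.58 without Myc-depleted replicate 2 to -0.0016 without Myc-depleted replicate 1. Aldh1a1 turned to 0.061 with the spike-in covariate and ran from -0.58 to 0.53 with 1 array left out, being 0.14 without control replicate 1 and 0.53 without Myc-depleted replicate 1. The dimmer Rarg probe set ran from -1.49 to 0.63, being 0.38 without control replicate 1 and 0.63 without Myc-depleted replicate 1. The cause of these turns was not tested beyond the arrays left out. Rara, the brighter Rarg probe set and the tested Aldh1a3 probe set stayed negative in every alternative in which they were tested, from -0.67 to -0.0016 for Rara, -0.33 to -0.04 for Rarg and -0.08 to -0.0074 for Aldh1a3. Signals near background limit Aldh1a2, Rbp4, Crabp1, Crabp2 and Rarb.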
